A study of Mus musculus with 6 samples.

Results

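Accessibility is described here at SP1 sites around Adamts14, which encodes a secreted protease, Timp3 and Serpine2, which encode secreted protease inhibitors, and Dpt, which encodes the matrix protein dermatopontin. SP1 is a transcription factor with zinc fingers that contact GC-rich DNA. The 4 genes were chosen by their log2 fold changes in the same comparison of cell types that is described below, so every value at their sites is given as a description and none is tested. A site belonged to a gene when its midpoint lay inside the gene or within 50000 bp of either end. This gave 31 of the 9001 listed sites, 11 at Timp3, 10 at Serpine2, 7 at Adamts14 and 3 at Dpt. No site belonged to more than 1 of the 4 genes.

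ATAC-seq, in which the Tn5 transposase inserts adapters into open chromatin, compared the pluripotent mouse embryonic stem cell line R1 (ESC) with neural progenitor cells (NPC) that also carry the R1 label, using 3 libraries of each. The labels give no treatment, no genotype beyond R1 and no route of differentiation, and they do not say whether the libraries came from separate cultures, so the deposited p-values reflect library-to-library variation that could be purely technical. Only the comparison of NPC with ESC was analysed here, as 1 row per 500 bp site with a mean signal (the normalized count averaged over libraries), a log2 fold change, its standard error (SE) and an adjusted p-value. Values per library and the depth of each library are unknown here, and markers of either cell type were not checked.

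Secreted proteases and their inhibitors together set how fast the matrix around cells is cut and rebuilt. Adamts14 encodes a metalloproteinase of the ADAMTS family, whose close relatives remove the amino-terminal propeptides of fibrillar procollagens. Timp3 encodes a tissue inhibitor of metalloproteinases that stays bound to the matrix and also inhibits ADAM and ADAMTS enzymes. Serpine2 encodes protease nexin-1, a serpin that inhibits thrombin, urokinase and other serine proteases and is made by glia and neural cells. Dpt encodes dermatopontin, a small matrix protein that binds decorin and affects collagen fibril assembly.

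The promoters are shown because SP1 binds the GC box, and the 4 genes differ in how many GC boxes they hold and in whether a listed site covers them. Each line gives the 250 bases before the transcription start in the direction of transcription, from RefSeq on build GRCm38.p6 (mm10), and all 4 genes were matched there by symbol. Capitals mark every match to GGGCGG on either strand, written CCGCCC where the match is on the other strand. Matches that overlap run together.
Serpine2, chr1:79858666-79858915, minus strand: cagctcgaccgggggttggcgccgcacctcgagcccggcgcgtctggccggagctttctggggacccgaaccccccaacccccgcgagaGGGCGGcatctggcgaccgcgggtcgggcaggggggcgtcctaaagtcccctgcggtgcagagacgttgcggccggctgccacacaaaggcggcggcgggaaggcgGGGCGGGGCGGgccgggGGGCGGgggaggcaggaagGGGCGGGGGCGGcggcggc
Adamts14, chr10:61273420-61273669, minus strand: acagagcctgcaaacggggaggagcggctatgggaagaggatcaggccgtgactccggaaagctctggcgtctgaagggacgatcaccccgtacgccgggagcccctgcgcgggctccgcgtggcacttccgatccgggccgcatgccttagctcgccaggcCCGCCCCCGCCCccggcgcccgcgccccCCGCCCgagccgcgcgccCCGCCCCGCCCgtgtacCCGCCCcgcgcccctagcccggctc
Timp3, chr10:86300162-86300411, plus strand: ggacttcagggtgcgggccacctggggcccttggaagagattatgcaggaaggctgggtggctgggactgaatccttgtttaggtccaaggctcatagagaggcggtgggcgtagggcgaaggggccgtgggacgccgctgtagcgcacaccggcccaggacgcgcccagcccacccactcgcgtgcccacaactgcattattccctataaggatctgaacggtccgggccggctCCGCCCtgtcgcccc
Dpt, chr1:164796413-164796662, plus strand: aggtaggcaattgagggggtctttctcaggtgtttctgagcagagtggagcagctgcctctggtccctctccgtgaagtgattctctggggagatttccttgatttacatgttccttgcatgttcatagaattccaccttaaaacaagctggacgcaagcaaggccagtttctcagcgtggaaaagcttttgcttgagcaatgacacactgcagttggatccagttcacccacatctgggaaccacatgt

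The promoters of Serpine2 and Adamts14 held 6 GC boxes each, that of Timp3 held 1 and that of Dpt held none. Of 32851 such promoter windows in the RefSeq table, 32.7% held at least 1 GC box and 1.93% held at least 5. The G and C content of the window was 78.8% at Serpine2, 76.4% at Adamts14, 65.6% at Timp3 and 48.8% at Dpt, against a median of 52.4% over all windows. A listed SP1 site covered the promoter of Timp3 alone among the 4. It overlapped 175 of the 250 bases and included the GC box, which begins 15 bases before the start. In the listed regions, 48.2% of 1914 protein-coding genes had a listed site over a wider promoter window of 300 bases that also reached past the start. A gene with several such windows counted if any was covered, so this share is a looser measure than that used for the 4 genes. At Serpine2 the nearest listed site lay 2852 bp before the start, at Adamts14 2598 bp before it and at Dpt 8343 bp after it. A match is a description of the letters and not evidence of binding.

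Accessibility was called higher in NPC at 15 of the 31 sites and lower at 5, and 11 were not called, at an adjusted p below 0.05 per the authors' deposited table. Over all 9001 sites, 22.8% rose and 32.6% fell by that rule. With p recomputed from the SE 14 sites rose and 4 fell, and with fold changes also centred on the median of all sites 16 rose and 2 fell. Since the genes were picked on this contrast, nothing is read from the gap between those shares. The median log2 fold change, NPC over ESC, was 1.04 over the 31 sites and -0.29 over all sites. Rises outnumbered falls at Serpine2 (5 and 1) and Timp3 (6 and 1), Adamts14 had 3 and 2, and Dpt had 1 of each. Each gene had 1 site with a log2 fold change above 6, a size reached by 34 sites in the whole table (0.378%). These leading sites lay inside Serpine2, beyond the end of Timp3, and ahead of the starts of Adamts14 and Dpt. The share of 0.378% does not allow for mean signal, so it is no measure of how rare such sites are. Among 565 sites with a mean signal within 10% of 9.83, the highest log2 fold change was 5.98.

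**Figure D1:**
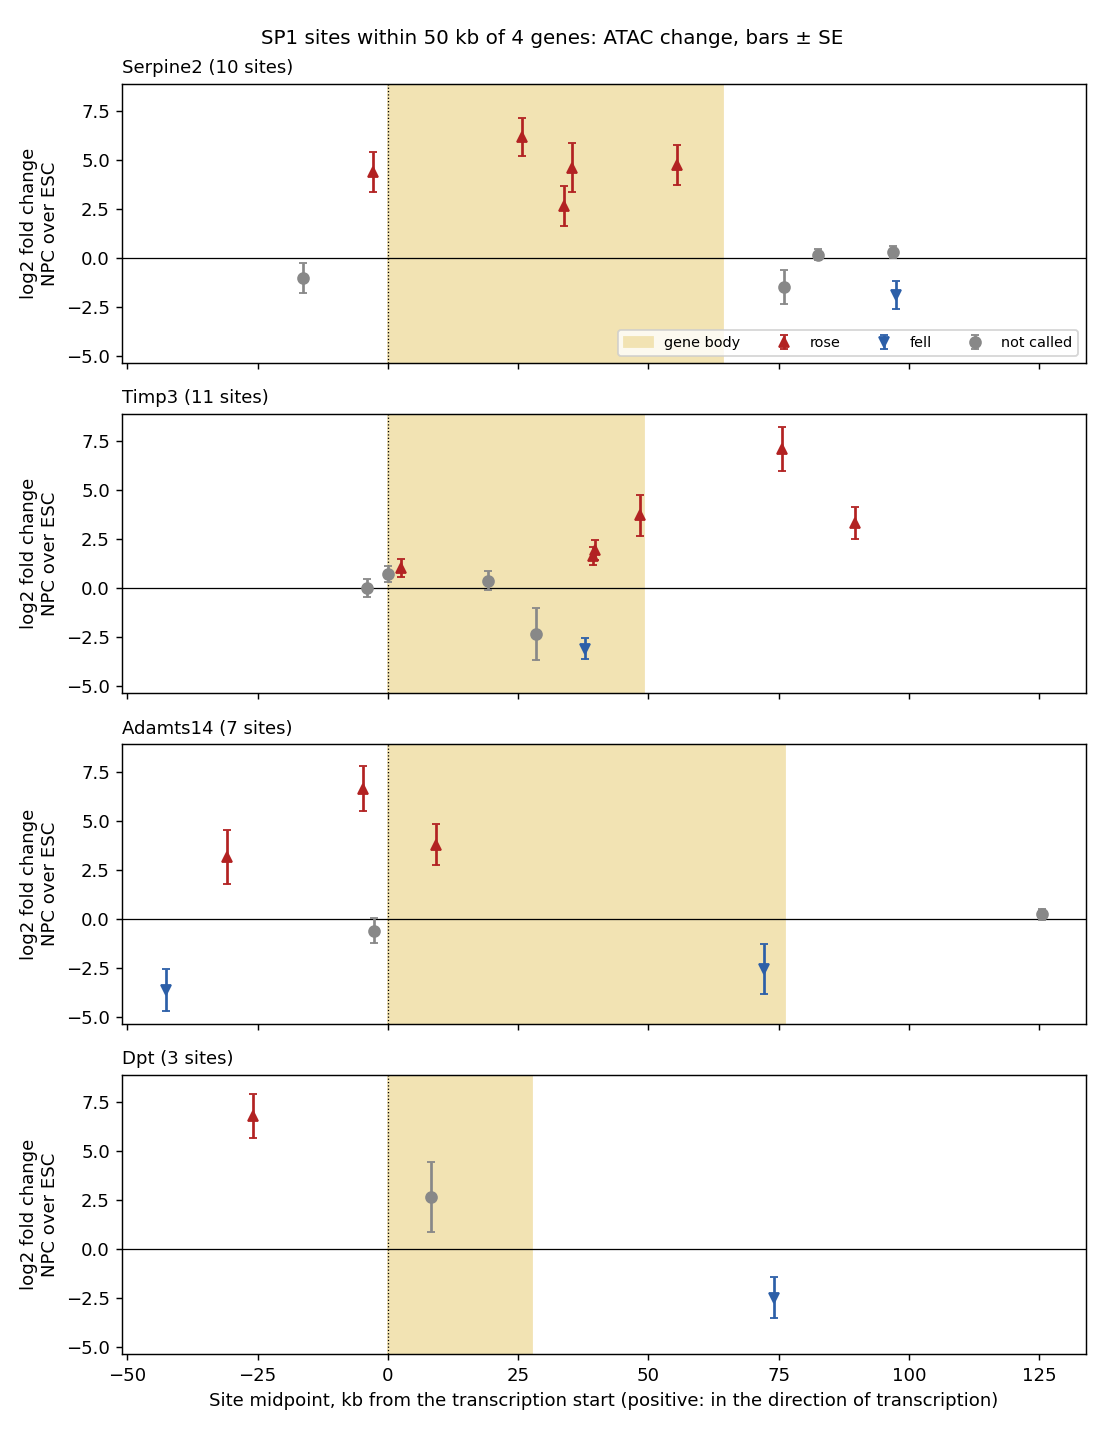
Log2 fold change of accessibility, NPC over ESC, at each of the 31 SP1 sites, plotted against the distance in kb from the gene's transcription start, with bars for ± 1 SE of the authors' deposited table. Triangles pointing up rose, triangles pointing down fell, grey circles were not called, and the shaded span is the gene body. All 4 sites inside Serpine2 rose, while the sites beyond the end of that gene lay between -1.89 and 0.29.

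Adamts14, the protease of the set, lies on chromosome 10 from 61197112 to 61273419 on the minus strand, 76.3 kb long. Its leading site stood 4.72 kb before the start, on chromosome 10 from 61277890 to 61278390, between genes, with a log2 fold change of 6.64 ± 1.13 (SE), a mean signal of 17.8 and an adjusted p of 2.13e-08 per the authors' deposited table. The neighbouring site 2.12 kb nearer to the gene was not called, at -0.61 ± 0.63 and a mean signal of 6.25 per the authors' deposited table. Of these close neighbours ahead of the gene 1 was called and 1 was not, and the difference between them was not tested.

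Inside Adamts14, a site 9.25 kb past the start (61263916 to 61264416) rose by 3.78 ± 1.06 on the log2 scale, adjusted p = 0.000618 per the authors' deposited table. Near the far end of the gene, 72.2 kb past the start, a weak site of mean signal 2.91 (61200950 to 61201450) fell, with -2.56 ± 1.29 and an adjusted p of 0.0327 per the authors' deposited table. That fall was no longer called with p recomputed from the fold change over its SE (adjusted p = 0.0904). The 2 sites inside the gene thus lay on opposite sides of 0.

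The other sites assigned to Adamts14 lie at its neighbours. A site inside Prf1, the gene of the pore-forming protein perforin, rose at 30.8 kb before the Adamts14 start, with 3.14 ± 1.37 at a mean signal of 2.76 per the authors' deposited table. That rise was not called at an adjusted p below 0.01 (deposited adjusted p = 0.0157). A site 42.5 kb before the start, whose nearest gene was Pald1 at 3.72 kb, fell, with -3.64 ± 1.08 per the authors' deposited table (adjusted p = 0.00115). The farthest site, 49.2 kb past the end of Adamts14, lay 219 bp from Sgpl1, which encodes sphingosine-1-phosphate lyase, and had the highest mean signal of the 7 sites (27.7) with a log2 fold change of 0.23 ± 0.29 per the authors' deposited table.

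Timp3 lies on chromosome 10 from 86300412 to 86349505 on the plus strand, wholly within Syn3, the gene of the vesicle protein synapsin III, so each of its 11 sites is also inside Syn3. The site over the Timp3 start, from 86300237 to 86300737, had a mean signal of 16.4 and was not called, at 0.73 ± 0.42 with an adjusted p of 0.0636 per the authors' deposited table. With fold changes centred on the median of all sites and p recomputed, this site passed the threshold (1.02, adjusted p = 0.0366), while with recomputed p alone it did not (adjusted p = 0.143). A site 4.02 kb before the start stood at 0.0043 ± 0.46 per the authors' deposited table. The site 2.53 kb past the start (86302688 to 86303188) rose by 1.04 ± 0.47 on the log2 scale, 2.05-fold, with an adjusted p of 0.0200 per the authors' deposited table, and was not called with p recomputed from the SE (adjusted p = 0.0564). Around the start of Timp3 the log2 fold changes were thus all near or below 1.

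Farther into Timp3 the sites parted. At 19.2 kb past the start the log2 fold change was 0.38 ± 0.48, and at 28.4 kb it was -2.33 ± 1.33 at a mean signal of 2.52, neither called per the authors' deposited table. A site 37.9 kb past the start, from 86338028 to 86338528, fell, with -3.09 ± 0.54, a mean signal of 16.7 and an adjusted p of 2.13e-07 per the authors' deposited table. A site 1.55 kb farther on and another 330 bp after it rose by 1.66 ± 0.47 and 1.95 ± 0.53 on the log2 scale per the authors' deposited table. These 2 overlap by 170 bp, so they can share fragments and are not separate measurements. Accessibility thus went in opposite directions within 2 kb at the 3′ part of the gene.

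The 3 largest rises at Timp3 lay at its end and beyond it. A site 48.3 kb past the start, still inside the gene, rose by 3.72 ± 1.06 on the log2 scale, adjusted p = 0.000774 per the authors' deposited table. The leading site, on chromosome 10 from 86375832 to 86376332, lay 26.6 kb past the end of Timp3 and inside Syn3. It had 7.12 ± 1.13 at a mean signal of 25.5 and an adjusted p of 1.43e-09 per the authors' deposited table, the 4th highest log2 fold change of the 9001 sites. That rank does not allow for mean signal. At 40.6 kb past the end another site rose by 3.34 ± 0.81 on the log2 scale per the authors' deposited table. All 3 sites between the last kilobases of Timp3 and 40.6 kb past its end were higher in NPC.

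Serpine2 lies on chromosome 1 from 79794317 to 79858665 on the minus strand, 64.3 kb long. All 4 sites inside it rose, and so did the site 2.85 kb before its start. The leading site, 25.7 kb past the start on chromosome 1 from 79832746 to 79833246, had 6.18 ± 0.98, an adjusted p of 2.52e-09 and the highest mean signal of the 31 sites, 36.4, per the authors' deposited table. Another pair, 1.49 kb apart at 33.8 and 35.3 kb past the start, rose by 2.65 ± 1.01 and 4.61 ± 1.25 on the log2 scale, with mean signals of 4.51 and 3.90, per the authors' deposited table. The site nearest the 3′ end, from 79802980 to 79803480, rose by 4.74 ± 1.01 on the log2 scale with an adjusted p of 9.58e-06 per the authors' deposited table. Ahead of the gene, from 79861267 to 79861767, the rise was 4.37 ± 1.02 on the log2 scale with an adjusted p of 4.94e-05 per the authors' deposited table.

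The sites flanking Serpine2 gave other values. At 16.3 kb before the start the log2 fold change was -1.02 ± 0.77, and at 11.7 kb past the end it was -1.48 ± 0.87, neither called per the authors' deposited table. Both Wdfy1 and the mitochondrial ribosomal protein gene Mrpl44 hold a site at 18.3 kb past the end of Serpine2, with a mean signal of 26.2 and 0.15 ± 0.28 per the authors' deposited table. Of 2 further sites inside Wdfy1, which encodes an endosomal adaptor, that of mean signal 23.2 stood at 0.29 ± 0.31 and that of mean signal 7.20 fell, at -1.89 ± 0.71 with an adjusted p of 0.00850, per the authors' deposited table. The 2 have starts 697 bp apart. That fall was still called with p recomputed from the SE (adjusted p = 0.0215) and was lost when fold changes were also centred (-1.61, adjusted p = 0.0523).

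Dpt lies on chromosome 1 from 164796663 to 164824274 on the plus strand, 27.6 kb long, and had the fewest sites. Its leading site, from 164770490 to 164770990, lay 25.9 kb before the start and between genes, with Dpt as the nearest protein-coding gene. It had 6.80 ± 1.13 at a mean signal of 20.0 and an adjusted p of 9.26e-09 per the authors' deposited table. The single site inside Dpt, 8.34 kb past the start, had the lowest mean signal of the 31 sites, 1.43, and was not called, at 2.65 ± 1.78 (adjusted p = 0.0747) per the authors' deposited table. A site 46.6 kb past the end, again between genes, fell, with -2.47 ± 1.07 and an adjusted p of 0.0177 per the authors' deposited table. It was still called with p recomputed from the SE (adjusted p = 0.0470) and was lost when fold changes were also centred (-2.19, adjusted p = 0.0798). The 3 sites of Dpt thus gave 1 rise, 1 fall and 1 value too imprecise to call.

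The rule's limit of 50000 bp passed between few sites. For Adamts14 the last site inside it, 49.2 kb away, had 0.23 and the first beyond it, 52.6 kb away, -1.39 ± 0.73 (called lower) per the authors' deposited table. For Dpt the sites at 46.6 and 51.5 kb had -2.47 and -0.52 ± 0.57 per the authors' deposited table. The first site beyond the limit was 76.2 kb from Timp3 (1.17 ± 1.28, not called) and 97.6 kb from Serpine2 (4.34 ± 1.28, called higher) per the authors' deposited table.

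How large a fold change could be depended on the mean signal of the site. In the plot of change against mean signal, the sites form curved bands along the upper and lower edges, along which sites of like mean signal have nearly the same fold change. The leading sites of Timp3, Adamts14 and Dpt lie on or near the upper edge. Of 230 sites with a mean signal within 10% of the leading Timp3 site, 3 had a higher log2 fold change per the authors' deposited table, and of 325 such sites for Adamts14, 2 did. None of 312 such sites exceeded the leading Dpt site, and 1 of 179 exceeded that of Serpine2. The uncalled site inside Dpt also lies near that edge, with 6 of 137 sites of like signal above it. So does the called Serpine2 site of mean signal 3.90 (4.61), with 14 of 889 above it. A log2 fold change of 2.65 inside Dpt and one of 7.12 beyond Timp3 are therefore not ranked against each other, and none of these edge values is given here as a bound. By contrast, the site over the Timp3 start had 112 of 360 sites of like signal above it.

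**Figure D2:**
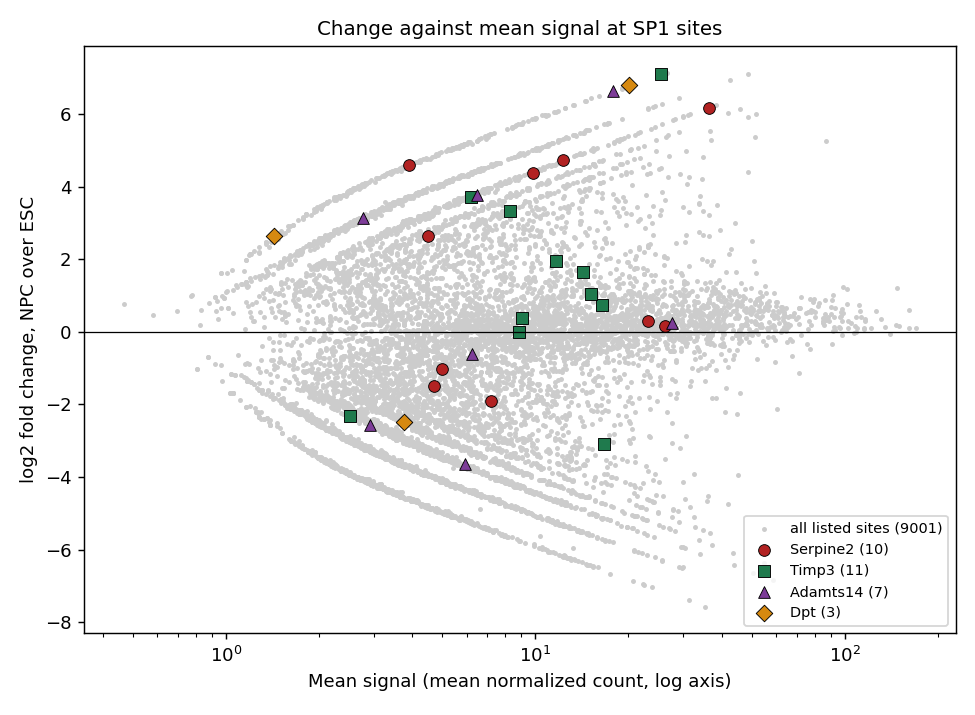
Log2 fold change, NPC over ESC, against mean signal (mean normalized count, log axis) for all 9001 listed SP1 sites in grey and the 31 sites of the 4 genes in colour. The leading sites of Timp3 (7.12), Dpt (6.80) and Adamts14 (6.64) sit at the upper edge of the cloud, while the strong sites of mean signal 23.2 to 27.7 near Wdfy1 and Sgpl1 lie close to 0.

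The 31 sites had mean signals from 1.43 to 36.4 with a median of 8.84, against 5.78 over all sites, and 22 were at or above that overall median. Inside the genes 9 of 15 sites rose and 2 fell, and outside them 6 of 16 rose and 3 fell. Of all 4461 listed sites inside a protein-coding gene 24.1% rose and 30.1% fell, against 22.8% and 32.6% over all listed sites, and nothing is read from these shares for genes chosen on the same contrast. The median log2 fold change was 1.95 inside and 0.19 outside. Most of the inside rises came from Serpine2 (4 of 4 sites) and Timp3 (4 of 8), with 1 of 2 at Adamts14 and 0 of 1 at Dpt.

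Other genes of the same roles were taken from lists drawn up by function. Secreted proteases had sites at 16 of 17 listed genes. Of these 101 sites 18 rose (17.8%), 31 fell (30.7%) and 52 passed in neither direction, with a median log2 fold change of -0.10. These shares lie near those over all listed sites, 22.8% and 32.6%, so they are no result about the list. Around Pm20d1, whose listing as a protease gene was not checked here, 3 of 8 sites rose and 1 fell. The rises were 5.22 ± 1.18 and 4.51 ± 1.17 inside its neighbour Slc26a9 and 2.95 ± 1.45 at 2.58 kb from Pm20d1, and the fall was -4.45 ± 1.19 at 44 bp from it, per the authors' deposited table. Around Mmp11, which encodes stromelysin-3, 3 of 6 sites fell and 1 rose, the rise (3.95 ± 0.89 per the authors' deposited table) lying inside Vpreb3. Mmp19, another matrix metalloproteinase gene, had 3 falls and no rise among 8 sites. Around Adamts4, an aggrecan-cleaving relative of Adamts14, 2 of 7 sites rose and 2 fell, and the site inside the gene stood at -0.10 ± 0.43 per the authors' deposited table. The serine protease genes Elane, Prtn3 and Cfd lie side by side and shared sites, 13 in all with 4 rises and 1 fall. The largest of these rises, 4.14 ± 0.88 per the authors' deposited table, lay inside Arid3a, 41.8 kb from Cfd. Around Prss56 4 of 8 sites fell and 1 rose, and the lowest value of the list was a fall there, at -5.06 ± 1.00 inside Eif4e2, per the authors' deposited table. Around the cathepsin E gene Ctse 1 of 4 sites rose, at 3.82 ± 1.24 inside the gene, and 1 fell, at -3.90 ± 1.24 inside Avpr1b, per the authors' deposited table. The listing of Ctse as a secreted protease gene was not checked here.

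Among other protease inhibitor genes 1 of 36 sites rose (2.78%), 14 fell (38.9%) and 21 were not called, with a median of -1.04. Over all listed sites 22.8% rose and 32.6% fell, so the share that fell lies near that of all sites. The list was chosen with earlier results of these data known, so nothing is read from the smaller share that rose. Centred, with p recomputed, 2 rose and 9 fell. The 12 genes of the Serpinb group on chromosome 1, mostly intracellular relatives of Serpine2, had 20 sites, of which 10 fell and none rose per the authors' deposited table. These sites were weak, with a median mean signal of 3.85 against 5.78 over all sites, and 5 of the 20 were at or above that overall median. A site shared by Serpinb12 and Serpinb13 had -4.65 ± 1.17, and a site 30 bp from Serpinb5, which encodes maspin, had -3.66 ± 0.91, per the authors' deposited table. Whether maspin acts as a protease inhibitor was not checked here. Near Serpinc1, the antithrombin gene, 2 of 5 sites fell. The testican gene Spock2, whose role as an inhibitor was not checked here, gave 11 of the 36 sites. It had the only rise of the list (2.02 ± 0.84), and 2 falls led by -3.76 ± 0.91, per the authors' deposited table. That rise was not called at an adjusted p below 0.01 (deposited adjusted p = 0.0154), and both it and that fall lay nearer to Chst3 than to Spock2. The difference between the Serpinb group and Serpine2 was not tested.

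The matrix proteins, listed as relatives of Dpt by role, numbered 10 genes and 41 sites. The 9 sites of Adamtsl5 are also the 9 sites of Pcsk4, so both this list and the secreted protease list count them. Of the 41 sites, 11 rose (26.8%), 7 fell (17.1%) and 23 passed in neither direction, with a median of -0.02. Over all listed sites the shares were 22.8% and 32.6%, and nothing is read from the gap. Within 10000 bp of these genes the balance turned, with 1 rise and 2 falls among 15 sites. Prelp, Optc and Fmod, small leucine-rich proteoglycan genes that lie near each other on chromosome 1, had 6 rises and no fall among 11 sites. The largest were 5.55 ± 1.13 at 31.9 kb from Prelp and 5.33 ± 0.99 at 48.4 kb from Fmod per the authors' deposited table, the latter nearer to Chit1. Of these rises, the Fmod sites from 134062594 to 134063094 and from 134063051 to 134063551 overlap, so they are not separate measurements. Dcn, the gene of decorin, the partner of dermatopontin, had 1 rise among 5 sites, at 2.41 ± 1.31 per the authors' deposited table, and that site lies inside Lum, the lumican gene. That site had a mean signal of 2.94 and was not called at an adjusted p below 0.01 (deposited adjusted p = 0.0453). At Prg4, the lubricin gene, 4 of 7 sites fell and 1 rose, with -5.86 ± 0.83 at the leading fall per the authors' deposited table. The leading called sites near Epyc (-4.60 ± 1.25 inside Ccer1) and Adamtsl5 (3.23 ± 1.59 inside Plk5) per the authors' deposited table lay inside another gene. The Adamtsl5 call was lost at an adjusted p below 0.01, with p recomputed from the SE (adjusted p = 0.0842) and with centring added (0.0575).

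**Figure D3:**
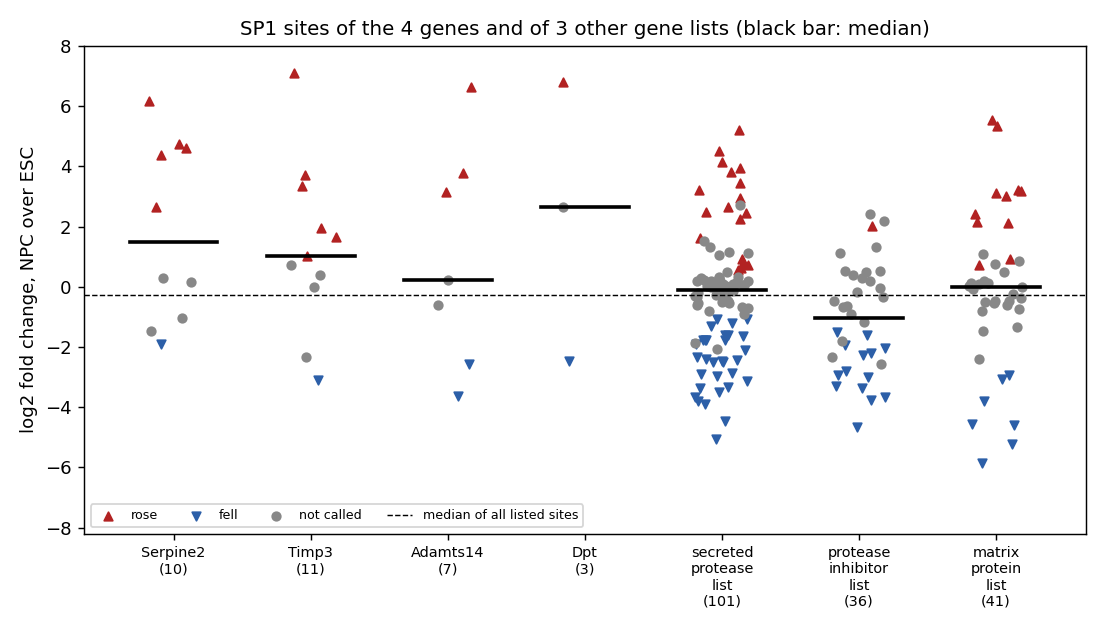
Log2 fold change, NPC over ESC, of each SP1 site of the 4 genes and of the 3 lists of other genes, with the number of sites in brackets, a black bar for the median and a dashed line for the median of all listed sites (-0.29). Sites that rose, fell or were not called have separate symbols, and the medians run from 2.65 at Dpt (3 sites) to -1.04 for the protease inhibitor list (36 sites). The sites shared by Adamtsl5 and Pcsk4 appear in both the matrix protein and the secreted protease list.

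In many of these neighbourhoods several genes share a site, 41 sites across the 3 lists belonging to more than 1 listed gene. Closeness of a site to a gene is no measure of regulation, and expression was not measured here. Exons, introns and UTRs were not analysed here.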

How the data were processed

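ATAC-seq libraries of ESC (3) and NPC (3) were grouped by their titles. The submitters' processing notes name mm10, BWA 2.1, Picard 2.23.8, MACS2 2.2.7, SAMtools 1.9 and DESeq2, without roles or settings, and how the SP1 sites were chosen or whether reads were shifted for Tn5 is not given in the sources used here. The table deposited by the authors holds, per the file headers, a mean signal (mean normalized count), a log2 fold change, its standard error (a score on the log2 scale), a p-value and an adjusted p-value per site. That fold changes are NPC over ESC rests on the table's deposited name. It lists 9001 sites on chromosomes 1, 10 and part of 11, with coordinates printed as given.

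Genes came from RefSeq GRCm38.p6, where every listed symbol but Cpo was found. Sites were assigned by midpoint with Python 3.11.15 and pandas 2.3.3, and called at the deposited adjusted p below 0.05. The main values rest on no new test. As alternatives, p-values were recomputed, also for centred fold changes. Recomputed p-values (normal, from fold change over standard error, Benjamini-Hochberg over listed sites) and site assignment were tested on simulated data. The deposited p-values are not those that the deposited fold change and standard error give in this way. At the Timp3 site from 86302688, adjusting over the listed sites gave 0.0196 from the deposited p and 0.0564 from the recomputed p. Why they differ is not known here, and neither set is taken as the better. The members and lists were chosen with earlier results of these data known. Of the other lists, the called sites named are the highest and lowest per gene, at most 3 in each direction, of which 1 is not reported here; further values were chosen after they were seen. Depth per library is unknown, so no interval on counts is given. Alternatives were the window, the threshold, the p-values, centring, a signal filter and 1 site per overlap group.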

Additional observations from a re-analysis of the deposited data

How the results depend on the processing

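Against 15 rises and 5 falls among 31 sites, the 15 sites inside the genes gave 9 and 2. A window of 10000 bp kept 19 sites, with 11 rises and 2 falls. Sites whose nearest gene was the member numbered 21, with 12 rises and 3 falls. At or above the median signal 22 sites were kept, with 12 rises and 3 falls. With all 31 sites, falls numbered 3 at an adjusted p below 0.01. Recomputing p from the standard error left 4 falls, and centring on the median of all sites, which also uses recomputed p, left 2. The rises stayed between 11 and 16 under the other settings, and the median log2 fold change between 0.89 and 1.95. A window of 10000 bp left 16 called sites for the secreted proteases (main value 49), 8 for the inhibitors (15) and 3 for the matrix proteins (18), from 37, 17 and 15 sites in place of 101, 36 and 41. The inhibitors had 9 called sites at an adjusted p below 0.01, and centring with recomputed p gave them 2 rises and 9 falls. Of the 31 sites, 4 calls were lost at an adjusted p below 0.01, 2 with p recomputed from the standard error, and 3 with centring and recomputed p together, which added 1. Of those 3, the Adamts14 site was already lost with recomputed p alone. The cause was not tested. None of these settings reversed a called site. No paired analysis was possible because the table holds no value per library, and for the same reason no library could be left out. Mean signals of a few normalized counts limit what single sites can show.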

Other observations

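Beyond the sites near Timp3, Syn3 held 12 more SP1 sites, with 1 rise, 4 falls, 7 uncalled and a median of -0.28 on the log2 scale per the authors' deposited table. Those called lower ranged down to -4.76 ± 1.01, and the rise was 4.45 ± 1.18. The sites near Timp3, within the same host gene, had 6 rises and 1 fall, with 2 of the rises at sites that overlap. Of the 12 other Syn3 sites 8.33% rose and 33.3% fell, against 22.8% and 32.6% over all listed sites. Timp3 was chosen by fold changes in this same contrast, so nothing is read from the difference, which was not tested.

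Serpine2 was 1 of 3 protein-coding genes, with Sobp and Spred2, in which every inside site rose, among 392 genes with at least 4 sites inside (0.765%). In 4 of them, Gpr1, Fn1, Fbxo36 and Tfcp2l1, every inside site fell. This count was made after the values were seen. Serpine2 was itself chosen by fold changes in this same contrast, so nothing is read from its place among the 392 genes.

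Opposite calls at close neighbours, as inside Timp3, were seen elsewhere. Among neighbouring sites with midpoints within 2500 bp that did not overlap and were both called, 66 of 277 pairs (23.8%) went in opposite directions, a description added after the data were seen.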
